A study of Mus musculus with 8 samples.

Results

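The 10 genes described here, of 27036 in the gene count table of mouse prostate tissue, are Aass, Aldh1l2, Ren1, Ptger3, Gpr110, Gpr37l1, Adarb2, Tmod4, Tmem47 and Samd12. They were selected on their values in these same libraries, for a strong fall in both prostate adenocarcinoma (PCa) libraries against every normal (WT) and prostatic intraepithelial neoplasia (PIN) library. The fall itself is therefore given as a description, with no test. PIN against WT was tested, but the choice also bears on it: each gene had to stay above PCa in every PIN library, so a gene already lost in PIN could not be among the 10, and the test speaks only of smaller differences. All 10 genes are annotated as protein-coding in GENCODE M1, and all passed the filter on low counts, which kept 14034 genes.

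One library was made from each of 3 normal prostates, 3 with PIN lesions and 2 tumors. The samples labelled WT-control are described by the study as R26mTmG/+:Osr1Cre/+ mice, and the PIN and PCa samples, labelled hARtg-Osr1Cre, as R26mTmG/hAR:Osr1Cre/+ mice. The study's text elsewhere calls the controls sex- and age-matched WT mice, so it is not certain that the WT animals carry the Osr1-Cre driver and the mTmG reporter allele. PIN and PCa carry both, with a human androgen receptor transgene that Cre switches on in the Osr1 lineage, so the model rests on the cells that this driver reaches. PIN and PCa tissue was chosen under the microscope for a majority of atypical or tumor cells. The age of these animals is not given in the sources used here. A library is an RNA pool of a whole piece of tissue, so fewer cells of a type and less RNA per cell cannot be told apart in any value below.

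The 10 genes have no single pathway in common. Aass and Aldh1l2 encode mitochondrial enzymes, the first opening the main route of lysine breakdown and the second oxidizing 10-formyl-tetrahydrofolate, a carrier of single carbon units. Ren1 encodes renin, the protease that cuts angiotensinogen to start the renin-angiotensin cascade. Ptger3, Gpr110 and Gpr37l1 encode G protein-coupled receptors, Adarb2 belongs to the family of adenosine deaminases that act on RNA, Tmod4 caps the slow end of actin filaments, Tmem47 is a tetraspan membrane protein of cell junctions, and Samd12 carries a SAM domain. The prostate is a gland whose luminal cells secrete fluid proteins under androgen control, within a sheath of smooth muscle.

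Promoter sequence was matched for 8 of the 10 genes in RefSeq (GRCm38.p6) and each was found once in mm9, the build of the count table. Those of Samd12 and Aldh1l2 are not shown. The 4 genes with the smallest share of their WT level left in PCa, in CPM, are printed, so that their promoters can be read side by side. Each is on the gene's own strand, and capitals mark CCAAT in either orientation or TATAAA. For 3 of them the 120 bases before the RefSeq start are given. For Ren1 30 bases around TATAAA are given, because GENCODE M1 has longer Ren1 transcripts whose exon 1 covers these bases.
Aass, chr6:23082987-23083106, minus strand: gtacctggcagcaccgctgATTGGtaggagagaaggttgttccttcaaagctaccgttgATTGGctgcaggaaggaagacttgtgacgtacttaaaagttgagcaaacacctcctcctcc
Adarb2, chr13:8201992-8202111, plus strand: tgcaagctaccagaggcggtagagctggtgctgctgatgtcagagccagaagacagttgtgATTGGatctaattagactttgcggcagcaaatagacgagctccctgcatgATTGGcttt
Gpr37l1, chr1:137064259-137064378, minus strand: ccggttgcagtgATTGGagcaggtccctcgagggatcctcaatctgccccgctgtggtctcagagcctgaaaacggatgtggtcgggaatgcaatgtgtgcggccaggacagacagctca
Ren1, chr1:135247212-135247241, plus strand: acatggtgtgTATAAAagaaggctcagggg

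Short motifs were searched on both strands of the whole 300-base RefSeq window, from 250 bases before to 50 after the start, and no motif was found in all 8 promoters. TATAAA was found in 1 of the 8, that of Ren1, where it starts at base −29, against 14.2% of 27025 mouse promoters. CCAAT was found in 3 (Aass, Adarb2 and Gpr37l1) against 37.9% of all promoters, and the GC box GGGCGG in 5 (Aass, Adarb2, Tmem47, Ptger3 and Gpr110) against 35.9%. The steroid receptor half-site AGAACA was found in 1 of the 8, Tmod4, against 19.0%, the cAMP response core TGACG in 1, Aass, against 21.0%, and the forkhead motif TGTTTAC in 0 against 3.55%. These are counts of letters in a short window and say nothing of which factors bind there.

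Total counts on genes were 21751803 to 29730420 per library. Levels are CPM, that is, counts on library sizes adjusted by the trimmed mean of M-values (TMM), and the common biological coefficient of variation of the fit was 0.489. By the numbers that open the sample descriptions, WT 1 lies apart, WT 2 and WT 3 lie together, and all PIN and PCa libraries lie close to each other. The labels do not say what these numbers mean, and they name no batch. If the numbers follow batches, a batch effect and the condition cannot be told apart against WT. WT 1 also stood apart in seminal vesicle transcripts: 7 such genes summed to 15880 CPM in it, to 0.634 and 0.769 CPM in WT 2 and WT 3, to 43.9 to 88.7 CPM in PIN and to 3840 and 882.7 CPM in PCa.

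The smooth muscle list moved with the PCa label as the 10 genes did. Its 8 genes, all of them measured, summed to 2134 to 5196 CPM in WT, 3400 to 6207 CPM in PIN and 63.3 and 40.5 CPM in PCa, and 7 of the 8 were called lower in PCa against WT. Among its defining genes, Myh11, the smooth muscle myosin heavy chain, stood at 680.1 CPM or more in WT and PIN and at 7.24 and 5.04 CPM in PCa. The 12 luminal secretory genes summed to 60135 to 94185 CPM in WT, 49262 to 71433 CPM in PIN and 10700 and 4454 CPM in PCa, with a median log2 fold change of −1.40 in PCa against WT where that of all tested genes was 0.013. Of the 12, 2 were called lower, and both are secreted proteins: Pbsn (probasin) stood at 6552 CPM or more in WT and PIN and at 8.53 and 60.8 CPM in PCa, and Tgm4, a secreted transglutaminase, at 34902 CPM or more and at 56.0 and 373 CPM. The luminal keratin Krt8 stood at 149 to 975 CPM in WT and PIN and at 453 and 333 CPM in PCa. The transcription factor Hoxb13, named after its values were seen, was lower in both PCa libraries than in every WT and PIN library and was not called, with an adjusted p of 0.114 in PCa against WT. The part of these shifts in the results below was not tested.

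All 10 genes were lower in both PCa libraries than in each of the 6 WT and PIN libraries, as 2160 of the 14034 tested genes were (15.4%), while 1883 were higher in both. All 10 were also past the limits used for a call (absolute log2 fold change above 1, adjusted p under 0.05) in both contrasts with PCa, where the choice of genes makes that no finding. In the background of all genes, PCa against WT called 8.54% in either direction and 4.18% lower, and PCa against PIN called 5.72% and 3.17% lower. The median log2 fold change of the 10 genes was −5.38 against WT and −5.30 against PIN, contrasts that share the PCa libraries, where the medians over all tested genes were 0.01 and 0.07. Setting Gpr37l1, counted 0 times in PCa, at its bound left the first median at −5.38.

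**Figure D1:**
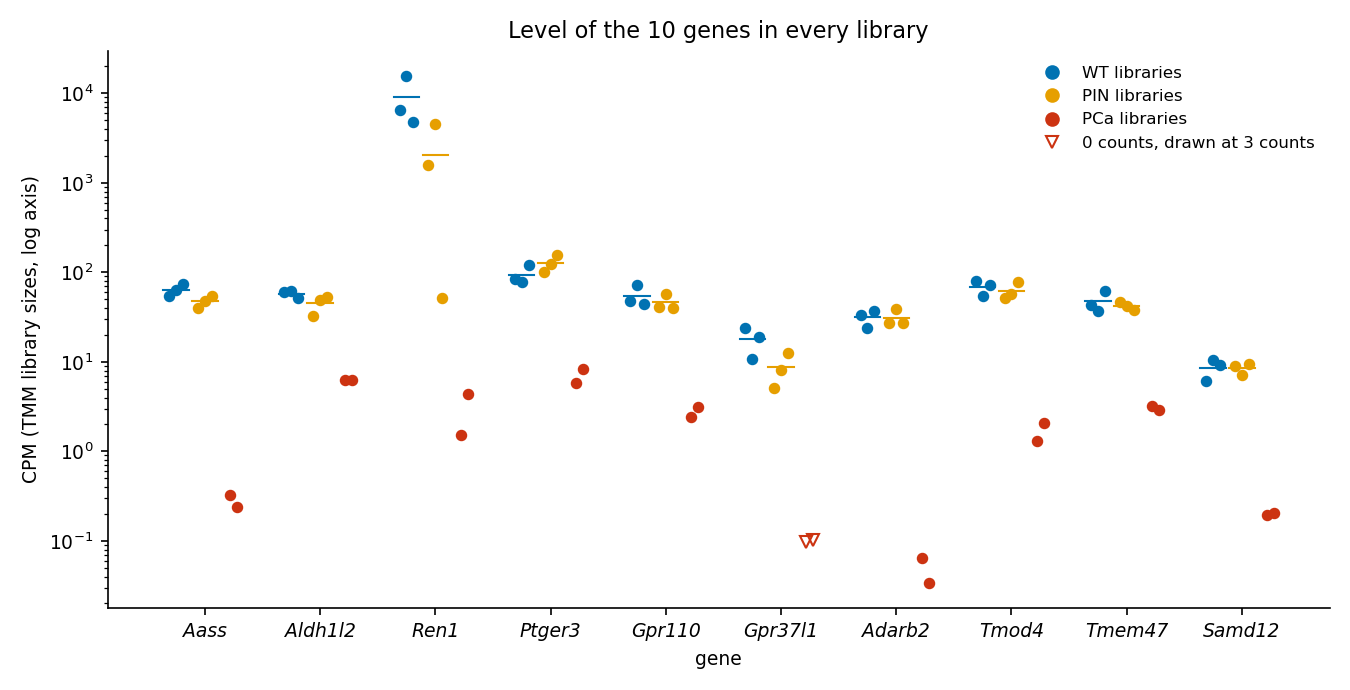
CPM of each of the 10 genes (log axis) in the 3 WT, 3 PIN and 2 PCa libraries, 1 point per library, with bars at the WT and PIN means and open triangles where a library had 0 counts. The PCa points lie below every WT and PIN point of the same gene, and the PIN 3 point of Ren1, at 52.0 CPM, lies far below its other WT and PIN points.

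Of the mitochondrial enzymes, Aass, the bifunctional enzyme that joins lysine to 2-oxoglutarate and splits the product, was among the most depleted. Its levels were 54.2, 62.8 and 74.5 CPM in WT, 40.1, 48.4 and 55.0 CPM in PIN and 0.322 and 0.24 CPM in PCa. The WT and PIN values overlapped, and those of PCa rested on 10 and 7 counts. PCa kept 0.442% of the WT mean, a WT level 226-fold higher (95% interval 141 to 388, counting error in PCa only).

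Among the other lysine breakdown genes, 11 of 14 in the table were tested, and in PCa against WT 2 were called lower and 1 higher, as in PCa against PIN. Aldh7a1, which acts after Aass on the aldehyde it releases, fell from 213 to 239 CPM in WT to 31.2 and 65.0 CPM in PCa (log2 fold change −2.25 ± 0.36 (SE), adjusted p = 0.0135 with edgeR's quasi-likelihood test and Benjamini-Hochberg adjustment, as for every adjusted p below). Agphd1, a hydroxylysine kinase, fell from 10.6 to 17.0 CPM in WT to 4.44 and 2.71 CPM (−1.90 ± 0.36, adjusted p = 0.0228). Crym, a thyroid hormone-binding protein with ketimine reductase activity, went the other way, from 2.96 to 8.97 CPM in WT to 60.8 and 400 CPM (5.47 ± 1.01, adjusted p = 0.0221). The remaining 8 tested genes of the list were not called.

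Aldh1l2 was the least depleted of the 10. It read 60.8, 61.9 and 51.3 CPM in WT, 32.5, 49.6 and 52.7 CPM in PIN and 6.34 and 6.31 CPM in PCa. WT and PIN overlapped through PIN 3, PIN 1 was the lowest of these 6 libraries, and the PCa values lay close together, 9.17-fold below the WT mean (8.29 to 10.2). Among the other folate enzymes, 20 of 22 were tested, and 2 were called lower and 2 higher in PCa against WT, as in PCa against PIN.

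Both lower calls were enzymes that oxidize single-carbon donors. Aldh1l1, the cytosolic counterpart of Aldh1l2, varied from 7.07 to 28.1 CPM in WT and from 4.75 to 16.8 CPM in PIN and read 0.772 and 0.206 CPM in PCa (−4.85 ± 1.06, adjusted p = 0.0338). Sardh, mitochondrial sarcosine dehydrogenase, went from 42.5 to 50.5 CPM in WT to 3.19 and 9.87 CPM (−2.81 ± 0.47, adjusted p = 0.0159). Of the higher calls, Tyms, thymidylate synthase, rose from 5.44 to 6.73 CPM in WT to 20.2 and 21.7 CPM in PCa (1.78 ± 0.28, adjusted p = 0.0129). Mthfd2, another mitochondrial folate enzyme, read 48.1 to 127 CPM in WT and 32.5 and 51.8 CPM in PCa and was not called (adjusted p = 0.218).

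Ren1 was the most abundant of the 10 and the most variable before PCa. The file places it at chr1:135247087-135256902 on the plus strand of mm9. Its levels were 6547, 15589 and 4838 CPM in WT, 1589, 4546 and 52.0 CPM in PIN and 1.54 and 4.42 CPM in PCa. In WT it took 0.445% to 1.17% of all counts and ranked between the 4th and the 7th most counted gene. In PIN its share was 0.161%, 0.468% and 0.00484%, and its rank fell from the 8th in PIN 2 and the 40th in PIN 1 to the 3742nd in PIN 3.

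The fall of Ren1 in PIN 3 had no match among the tested genes. It was the 1 gene of 14034 whose PIN 3 level lay more than 10-fold below all 5 other WT and PIN libraries (with 0.1 CPM added), and the same count for the other libraries was 0 to 14. Over the 6 WT and PIN libraries the highest Ren1 level was 300-fold the lowest, where the median of all tested genes was 2.03-fold and 1.83% reached the value of Ren1. In PCa, Ren1 rested on 48 and 129 counts, 3060-fold below the WT mean (2641 to 3566) and 702-fold below the PIN mean (606 to 818). These intervals cover counting only, and single libraries moved the folds further when left out, a check chosen after seeing the data: that over WT was 1937 without WT 2, 2033 without PCa 1 and 5821 without PCa 2, and that over PIN 279 without PIN 2, 466 without PCa 1 and 1335 without PCa 2. The mice were of mixed strains, and some mouse strains carry another renin gene, nearly identical to Ren1, that the reference lacks. Whether reads of such a copy were counted as Ren1, and whether the copy number differed between animals, was not tested.

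Of the 10 other renin-angiotensin genes tested, 0 were called lower in PCa against WT. Agt, which encodes angiotensinogen, the substrate of renin, stood at 1.14 CPM or less in all 8 libraries and did not pass the filter. Ace, the angiotensin-converting enzyme, read 1009 to 1234 CPM in WT, 695 to 1007 CPM in PIN and 513 and 10.8 CPM in PCa, where the tumors differed widely, and it was not called (log2 fold change −2.12 ± 1.20, adjusted p = 0.295). Nr3c2, the mineralocorticoid receptor, named after its values were seen, read 42.0 to 45.1 CPM in WT, 26.4 to 37.3 CPM in PIN and 11.4 and 0.823 CPM in PCa and was not called (−2.83 ± 0.90, adjusted p = 0.0917), although both it and Ace lay lower in both PCa libraries than in every WT and PIN library. Agtr1a, the main angiotensin receptor, was the 1 gene called of the 10 and was higher: it read 9.83 to 42.6 CPM in WT, 64.8 to 184 CPM in PIN and 1005 and 151 CPM in PCa (4.62 ± 0.94 in PCa against WT, adjusted p = 0.0281). Against PIN, 0 of the 10 were called.

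Of the receptors, Ptger3, the EP3 receptor for prostaglandin E2, which couples to Gi, was the 1 gene of the 10 with a PIN mean above its WT mean in CPM. It read 84.4, 77.1 and 120 CPM in WT, 102, 123 and 155 CPM in PIN and 5.79 and 8.40 CPM in PCa. The WT and PIN ranges overlapped, and WT stood 13.3-fold (12.1 to 14.6) and PIN 18.0-fold (16.3 to 19.8) above PCa. The gene spans chr3:157229856-157307722.

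The other E prostanoid receptors were scarce and not called. Ptger1 read 1.04 to 2.88 CPM and Ptger4 1.39 to 5.39 CPM in WT and PIN, and in PCa they read 2.41 and 0.754 CPM and 6.89 and 7.37 CPM (adjusted p = 0.825 and 0.348 in PCa against WT). Ptger2 stayed at 0.965 CPM or less and was not tested. Of the 15 tested prostaglandin genes other than Ptger3, 1 was called in each PCa contrast: Ptgs2, the inducible cyclooxygenase, rose from 1.88 to 3.08 CPM in WT to 19.2 and 42.3 CPM (3.64 ± 0.47, adjusted p = 0.00816).

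Gpr110, an adhesion receptor also named Adgrf1, read 47.6, 72 and 44.0 CPM in WT, 40.7, 57.6 and 40.1 CPM in PIN and 2.45 and 3.12 CPM in PCa. WT and PIN overlapped, and the WT mean stood 19.7-fold (16.9 to 23.0) above PCa. Of its relatives, 3 are given here: Gpr111 was at 0.686 CPM or less in all libraries and was not tested, Gpr115 read 0.264 to 0.972 CPM in WT and PIN and 2.12 and 11.5 CPM in PCa (adjusted p = 0.0507), and Gpr116, the next tested gene on the chromosome, read 7.88 to 45.4 CPM and 41.9 and 26.1 CPM (adjusted p = 0.770). Of the 23 tested adhesion receptors beside Gpr110, 1 was called, in both PCa contrasts: Lphn3, a latrophilin, fell from 1.77 to 6.81 CPM in WT to 0.290 and 0.103 CPM (−4.40 ± 0.83, adjusted p = 0.0232).

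Gpr37l1, an orphan receptor best known from glia, was the 1 gene of the 10 with no count in PCa. It read 23.7, 10.8 and 19.0 CPM in WT, 5.11, 8.20 and 12.7 CPM in PIN and 0 in both PCa libraries, as did 17 tested genes in all. The WT level was at least 358-fold and the PIN level at least 174-fold higher, against a floor of 3 counts over the PCa group (0.0498 CPM). With either PCa library alone, the bounds were 173 or 185 for WT and 84.4 or 89.9 for PIN. WT and PIN overlapped through WT 2 and PIN 3, and the other WT libraries lay above all of PIN. Its paralog Gpr37 had 1 WT library with any signal (0.0494 CPM) and was not tested.

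Of the glial and Schwann cell markers, Mbp read above Gpr37l1 in CPM in every WT and PIN library, and Sox10, Gfap and S100b read below it. Sox10 read 0.181 to 2.62 CPM in WT, 0.241 to 0.866 CPM in PIN and 0 in PCa, and Gfap and S100b stayed at 0.692 CPM or less throughout. The 6-gene list, led by Mbp, summed to 76.0 to 96.3 CPM in WT, 66.6 to 72.9 CPM in PIN and 33.7 and 24.8 CPM in PCa, and 2 of its 4 tested genes, Mbp among them, were called lower in PCa against WT. The part of glial cells in its level was not tested.

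Adarb2, a brain-enriched protein of the RNA editing family for which no editing activity is established, was among the genes nearest to absence. It read 33.5, 23.6 and 37.4 CPM in WT, 27.3, 38.6 and 27.3 CPM in PIN and 0.0644 and 0.0343 CPM in PCa, on 2 and 1 counts. The WT and PIN values were interleaved, and the WT mean stood 633-fold above PCa with a wide interval (217 to 3069), since 3 counts carry the PCa value. The active editing enzymes of the family were not called: Adar read 42.7 to 106 CPM in WT and PIN and 101 and 55.9 CPM in PCa (log2 fold change 0.57 ± 0.38 in PCa against WT, adjusted p = 0.375), and Adarb1 read 3.35 to 16.3 CPM and 7.72 and 1.95 CPM (−0.94 ± 0.70, adjusted p = 0.431). Of the 5 tested relatives, 0 were called in either PCa contrast.

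Tmod4, the tropomodulin of skeletal muscle, read 80.3, 53.8 and 72.8 CPM in WT, 51.5, 57.2 and 78.6 CPM in PIN and 1.29 and 2.06 CPM in PCa. WT and PIN overlapped, and the WT mean was 41.5-fold (34.1 to 51.0) above PCa. Its relatives went both ways. Of the 9 tested tropomodulins, leiomodins and tropomyosins, 3 were called lower and 1 higher in PCa against WT, and 3 lower and 0 higher against PIN.

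The lower calls were genes of muscle filaments. Lmod1, the smooth muscle leiomodin, fell from 25.5 to 65.9 CPM in WT to 0.611 and 0.274 CPM (−6.75 ± 0.64, adjusted p = 0.00461), and Tpm2, a tropomyosin, from 232 to 475 CPM to 6.40 and 2.13 CPM (−6.41 ± 0.72, adjusted p = 0.00685). Tpm1, another tropomyosin, was the third (−1.57 ± 0.34, adjusted p = 0.0322). Tmod1, the tropomodulin of red cells and heart, was called higher, from 0.544 to 3.56 CPM in WT to 11.6 and 45.3 CPM (3.82 ± 0.81, adjusted p = 0.0312), whereas Tmod2 and the widely expressed Tmod3 were not called (adjusted p = 0.505 and 0.228). Lmod2, named after its values were seen, had 0 counts in WT and PIN and read 24.7 and 1.30 CPM in PCa, with an adjusted p of 0.0734.

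Skeletal muscle markers gave a mixed picture beside Tmod4. Of the 12 listed, 8 did not pass the filter: the fast myosin Myh4 and the calcium pump Atp2a1 stood at 0.225 CPM or less in all libraries, and Tnni2 at 0.612 CPM or less in WT and PIN, far under Tmod4. The untested troponins Tnnt3 and Tnni2, named after their values were seen, were higher in PCa 1, where they read 11.6 and 2.22 CPM against 0.171 and 0.309 CPM in PCa 2, and Tnnt3 was at 0.593 CPM or less in WT and PIN. Acta1, skeletal actin, read 50.1 to 252 CPM in WT and PIN and 0.257 and 0.48 CPM in PCa, and Ckm, muscle creatine kinase, 2.99 to 9.49 CPM and 0.0322 and 0.0343 CPM. The list summed to 66.6 to 205.2 CPM in WT, 55.0 to 264.9 CPM in PIN and 17.1 and 3.53 CPM in PCa, with 3 of 4 tested genes called lower. Tnnt3 alone made up most of the sum in PCa 1. Tmod4 varied 1.56-fold over the 6 WT and PIN libraries, where Acta1 went from 50.1 CPM in PIN 2 to 252 CPM in PIN 3.

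Tmem47, a tetraspan protein of the PMP22 and claudin group, read 43.1, 37.3 and 62.1 CPM in WT, 46.8, 42.4 and 38.1 CPM in PIN and 3.22 and 2.91 CPM in PCa. PIN lay inside the WT range, and the WT mean was 15.5-fold (13.4 to 18.0) above PCa. Its relatives Pmp22, the peripheral myelin protein, and Emp1 were not called (adjusted p = 0.411 and 0.839), and Emp2 was the 1 called of 5 tested, from 12.6 to 26.3 CPM in WT to 64.4 and 109 CPM in PCa (2.29 ± 0.47, adjusted p = 0.0293).

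Samd12, whose function is little known, was the lowest of the 10 in WT by CPM. It read 6.13, 10.4 and 9.19 CPM in WT, 8.89, 7.06 and 9.42 CPM in PIN and 0.193 and 0.206 CPM in PCa, on 6 counts in each tumor. PIN lay inside the WT range, and the WT mean was 43.1-fold (24.7 to 83.4) above PCa. Of 8 other tested short SAM domain genes, 1 was called lower in PCa against WT (Samd4, −1.84 ± 0.45, adjusted p = 0.0469) and 1 higher (Samd5, 5.13 ± 1.23, adjusted p = 0.0434), the latter through PCa 2, at 39.6 CPM against 1.51 CPM in PCa 1.

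Ordered by TPM, a scale that divides counts by exon length, the WT means ran from Ren1 (15310 ± 7205 TPM, SD, n = 3) through Tmod4 (123 ± 39.2), Ptger3 (63.3 ± 23.6), Aass (50.8 ± 13.4), Gpr110 (41.5 ± 4.49), Tmem47 (36.5 ± 14.8), Gpr37l1 (24.5 ± 11.1), Aldh1l2 (23.2 ± 2.55) and Samd12 (17.4 ± 3.97) to Adarb2 (10.1 ± 3.60). Ren1 stood apart, and its lowest WT library (9893 TPM) was above the highest of Tmod4 (148.5 TPM). Below it the ranges of neighbours in this order overlapped, as did those of Samd12 (13.2 to 21.15 TPM) and Aldh1l2 (20.6 to 25.7 TPM), with the exception of Adarb2, whose highest library (13.1 TPM) lay just under the lowest of Samd12.

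The share of the WT level left in PCa set the 10 genes in a different order from their level. It was 0.0327% for Ren1, 0.158% for Adarb2, 0.442% for Aass, 2.32% for Samd12, 2.41% for Tmod4, 5.08% for Gpr110, 6.47% for Tmem47, 7.53% for Ptger3 and 10.9% for Aldh1l2. Gpr37l1, at 0 counts, lies at or under the floor. The counting intervals of neighbours in this order overlapped for Ren1 and Adarb2, for Adarb2 and Aass, for Samd12 and Tmod4, for Gpr110 and Tmem47 and for Tmem47 and Ptger3, and not for the other neighbours.

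**Figure D2:**
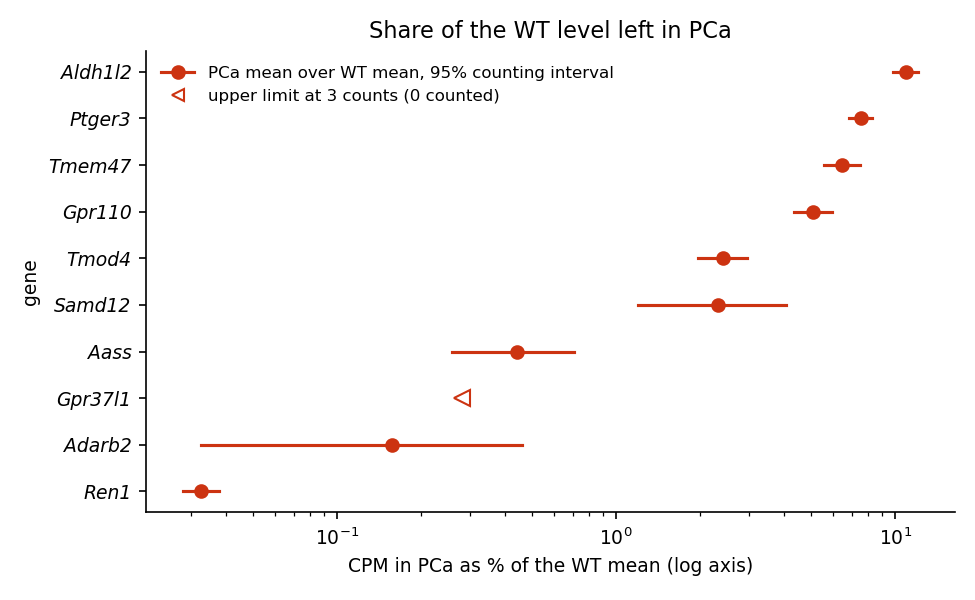
CPM in PCa as a percentage of the WT mean (log axis) for each of the 10 genes, with 95% counting intervals as bars and an open triangle at the upper limit for Gpr37l1, which had 0 counts. The values run from 0.0327% for Ren1 to 10.9% for Aldh1l2.

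The tumors were compared with each other gene by gene. For the 9 genes with counts in both, the higher PCa library was 1.00-fold (Aldh1l2) to 2.86-fold (Ren1) the lower, where the median over 13809 tested genes with counts in both was 1.52-fold. The higher value was in PCa 1 for Aass, Adarb2, Tmem47 and Aldh1l2 and in PCa 2 for Tmod4, Ptger3, Samd12, Gpr110 and Ren1. With 2 tumors, this spread is known only roughly.

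The choice had already kept out any gene as low in PIN as in PCa, and within that limit none of the 10 passed the test. PIN against WT called 0 of the 14034 tested genes (0% in the background) and 0 of the 10, with an adjusted p of 1 for each. With no adjustment, 492 genes (3.51%) were under 0.05, and 0 of the 10 were. The study, with its own processing, reported differentially expressed genes in PIN against WT at like limits of fold change and adjusted p. The reason for this difference was not tested. All 13 alternatives, DESeq2 among them, also called 0 of the 10. DESeq2 called 39 of 13945 genes in this contrast (0.28%), and the other 12 alternatives called 0 of all genes. With no adjustment, Gpr37l1 was under 0.05 in 6 of them, at 0.0297 to 0.0423 (DESeq2, the model of only WT and PIN, and without WT 2, PIN 3, PCa 1 or PCa 2), and Ren1 in 2, at 0.0433 with DESeq2 and 0.0275 with the replicate block. Of the 10, 9 had a log2 fold change below 0, with a median of −0.20, where 52.0% of all tested genes were below 0 with a median of −0.02.

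The largest differences in PIN were those of Ren1 (log2 fold change −2.12 ± 1.26, SE) and Gpr37l1 (−1.04 ± 0.45), the receptor and the protease that also varied most among the 6 WT and PIN libraries. Next in size were Ptger3, which was higher in PIN (0.44 ± 0.26), Aass (−0.42 ± 0.21) and Aldh1l2 (−0.37 ± 0.22). Gpr110 (−0.24 ± 0.26), Tmem47 (−0.16 ± 0.23), Tmod4 (−0.14 ± 0.27), Adarb2 (−0.02 ± 0.26) and Samd12 (−0.02 ± 0.31) lay within 1 standard error of 0. WT and PIN were apart, with no overlap, for 1 of the 10, Ren1, where 12.9% of all tested genes were apart in this way. For Ren1 the estimate moved from −3.45 without PIN 2 to −1.47 without WT 2 and was −1.55 without PIN 3 and −3.17 with the replicate block, and its adjusted p was 0.807 or more under every alternative.

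**Figure D3:**
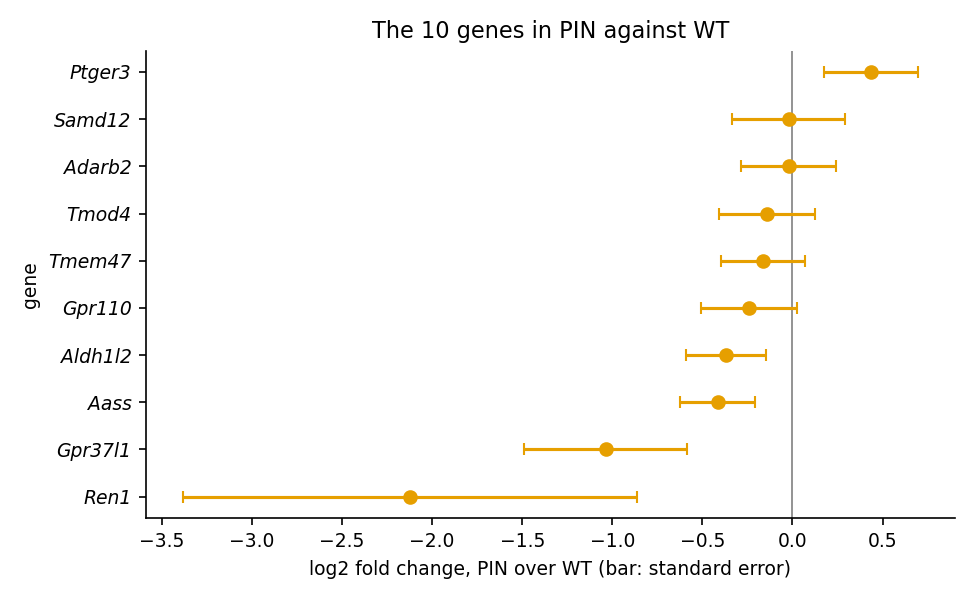
Log2 fold change of the 10 genes in PIN over WT, with standard errors as bars, from the model of all 8 libraries. Ren1 at −2.12 has the widest bar, Ptger3 is the 1 gene above 0, and the adjusted p was 1 for each.

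The pathway and family lists were also counted together. Of 108 tested genes beside the 10, PCa against WT called 17 (15.7%, beside 8.54% of all tested genes), 8 higher and 9 lower, with a median log2 fold change of 0.10, PCa against PIN called 13 (12%, beside 5.72%), 4 higher and 9 lower, and PIN against WT called 0. These counts moved with single libraries and with the model, and so did the calls over all tested genes, a count added after seeing the data, which for PCa against WT ran from 0.876% in a model of only the groups compared to 18.2% without PCa 1, and for PCa against PIN from 0.556% without PIN 3 to 16.5% without PCa 1. For PCa against WT the count was 36 without PCa 1, 11 without PIN 1, 7 without PIN 3 and 6 without WT 3, and 28 with DESeq2, 9 with the replicate block and 3 in a model of only the groups compared. For PCa against PIN it was 37 without PCa 1, 8 without WT 1, 4 without WT 3 and 2 without PIN 1, without PIN 2 or without PIN 3, and 26, 4 and 3 under the same settings.

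Single calls differed in the same way. Ptgs2, Lmod1 and Tpm2 stayed called in PCa against WT under all 13 alternatives, and Aldh7a1 and Tyms under 12, each lost in the model of only WT and PCa. Sardh stayed called under 10, Agtr1a under 9 and Crym and Agphd1 under 8. Of the others, 7 held in 7 or fewer: Aldh1l1, Emp2 and Lphn3 in 7, Tmod1 and Tpm1 in 6 and Samd4 and Samd5 in 4. In PCa against PIN, Lmod1 and Tpm2 held under all 13. Every one of the 17 was called without PCa 1 and under DESeq2, and the call was lost without WT 3 for 11 of them, among them Crym, Agphd1, Aldh1l1, Sardh, Agtr1a and Tmod1.

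**Figure D4:**
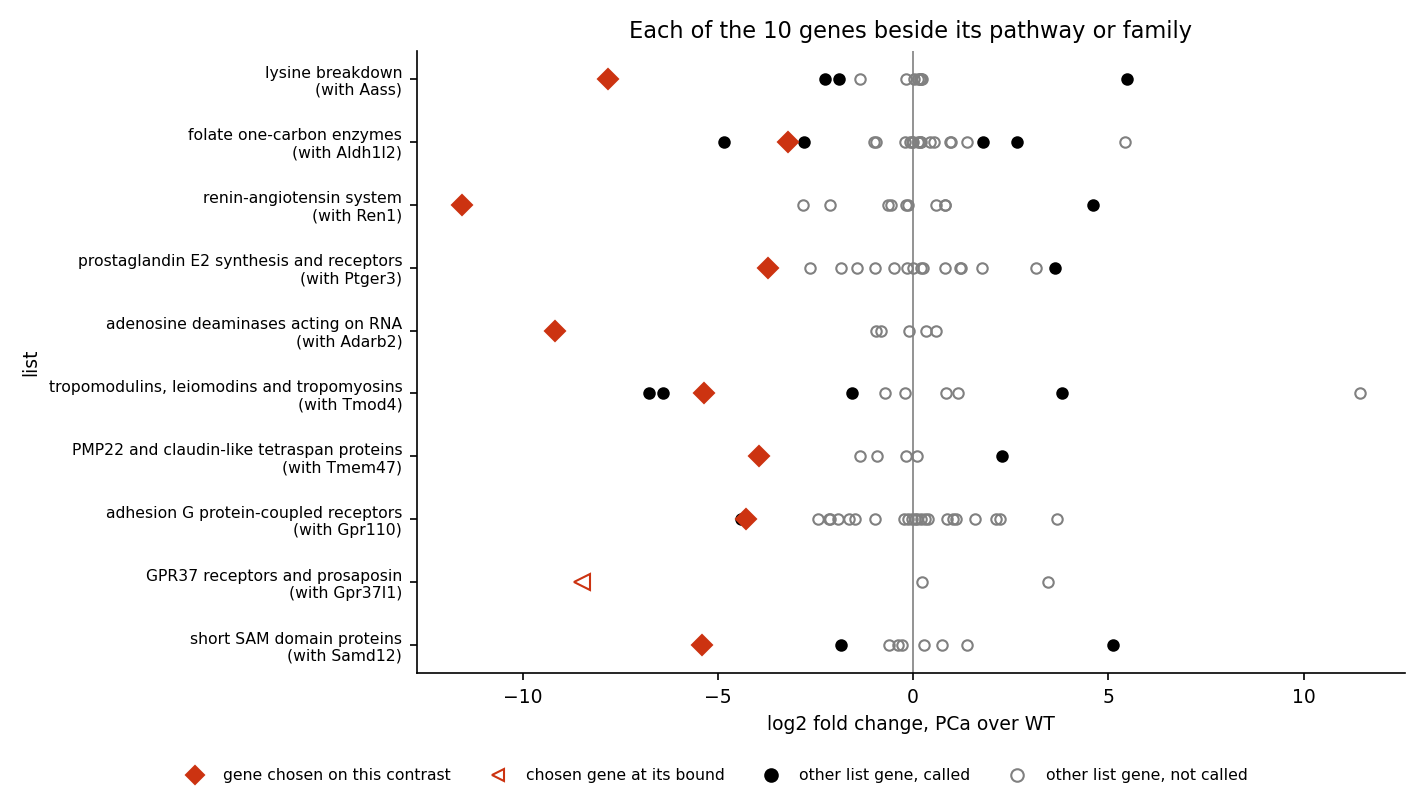
Log2 fold change in PCa over WT for each of the 10 genes (red) and for the other tested genes of its list (black where called, open grey where not). Red diamonds were chosen on this contrast and the red triangle marks the bound of Gpr37l1. In most lists the median of the other genes lies near 0, with single genes far to either side, such as Crym above and Aldh1l1 below. The tropomyosin and leiomodin genes Tpm2 and Lmod1, at −6.41 and −6.75, lie as low as Tmod4.

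The genes most like the 10 were found with the gap, the log2 ratio of the lowest WT or PIN level to the highest PCa level, with 0.1 CPM added to both. Over the 2160 genes below in both PCa libraries, Adarb2 ranked 6th (gap 7.17), Aass 8th (6.58), Gpr37l1 14th (5.70), Tmod4 33rd (4.58), Samd12 38th (4.35), Gpr110 66th (3.64), Ren1 67th (3.53), Tmem47 68th (3.49), Ptger3 83rd (3.18) and Aldh1l2 153rd (2.34). Ren1 stands this low because of PIN 3. The choice of the 10 followed no limit on the gap: 143 other genes lay above Aldh1l2, with Clec18a (2.35) and Nptx2 (2.36) just above it and Rtn2 (2.34) and Hoxb5 (2.34) just under.

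**Figure D5:**
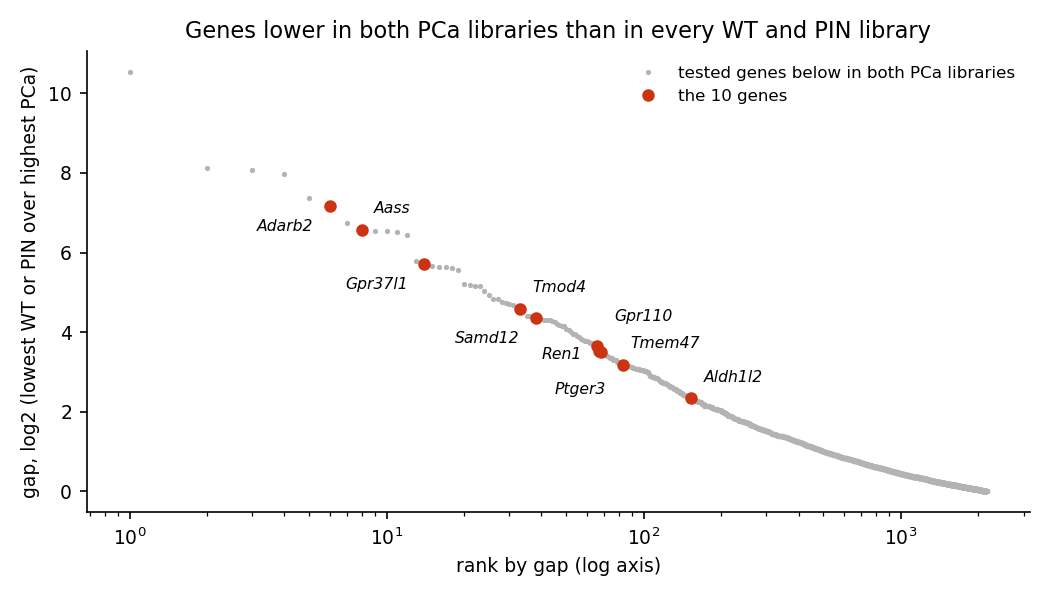
Gap of each of the 2160 tested genes below in both PCa libraries (log2 scale) against its rank (log axis), with the 10 genes in red. Adarb2 and Aass stand at ranks 6 and 8, and Aldh1l2 at rank 153.

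The 10 other genes with the largest gaps included secretory and muscle genes. 9530053A07Rik had the largest gap (10.5), from 129192 to 237910 CPM in WT and PIN to 86.4 and 69.8 CPM in PCa. Secreted products were Fgl1 (8.13), a fibrinogen-like protein, Pbsn (6.75) and Tgm4 (6.55), and muscle genes were Myh11 (6.53), Cnn1 (6.52), the smooth muscle calponin, and Acta1 (6.44). The others were Gm10935 (8.07), Ms4a5 (7.98), a tetraspan protein, and 9530003J23Rik (7.36).

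On the chromosomes the 10 genes lay in separate places, apart from Ren1 and Gpr37l1, which are 1.80 Mb apart on chromosome 1. Of the 24 tested genes between these, 1 was called lower and 3 higher in PCa against WT. Within 500 kb of the 10 genes there were 90 tested neighbours, of which 6 (6.67%) were called lower and 4 higher, against the 4.18% called lower in all. The 6 were Ptprz1 and Cadps2 beside Aass, Lysmd1 near Tmod4, Cth near Ptger3, Lmod1 near Gpr37l1 and Golt1a near Ren1. Aass, at chr6:23022173-23082986, was the exception, since both of its tested neighbours within 500 kb were called lower: Ptprz1, a receptor phosphatase that ends 19.3 kb before it, read 6.47 to 35.1 CPM in WT and PIN and 0.225 and 0 CPM in PCa (adjusted p = 0.0234), and Cadps2, a vesicle release factor 130 kb beyond it, read 64.4 to 96.9 CPM and 7.72 and 25.7 CPM (log2 fold change −2.24 ± 0.49, adjusted p = 0.0341).

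Elsewhere the nearest tested genes were mostly not called. Tmod4, at chr3:94928398-94933131, lies 1.43 kb from Vps72 (46.2 to 66.8 CPM in WT, 39.5 and 33.8 CPM in PCa, adjusted p = 0.1) and 0.510 kb from Scnm1 (21.6 to 23.6 CPM in WT, 11.3 and 14.7 CPM in PCa, adjusted p = 0.0750). Etnk2, 3.25 kb after Ren1, read 10.2 to 16.6 CPM in WT and 3.93 and 8.30 CPM in PCa (adjusted p = 0.123), and Kiss1, 20.6 kb before Ren1, 6.88 to 20.7 CPM and 0.0322 and 0.994 CPM (−4.58 ± 1.20, adjusted p = 0.0553). Arl8a, 3.96 kb from Gpr37l1, read 62.5 to 93.3 CPM in WT and 65.0 and 41.1 CPM in PCa (adjusted p = 0.275).

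Wdr37, 34.2 kb beyond Adarb2 (chr13:8202112-8767993), read 29.1 to 38.2 CPM in WT and 29.8 and 34.6 CPM in PCa (adjusted p = 0.772), and Pfkp on the other side was not called (adjusted p = 0.728). Zranb2, 18.5 kb before Ptger3, was not called (adjusted p = 0.462), while Cth, 249 kb beyond it, was called lower, from 7.76 to 9.52 CPM in WT to 3.35 and 4.22 CPM in PCa (−1.22 ± 0.30, adjusted p = 0.0491). Around Samd12 (chr15:53293176-53734092), Ext1 and Tnfrsf11b were not called (adjusted p = 0.397 and 0.705), nor were Tnfrsf21 before Gpr110 (chr17:43407278-43461686, adjusted p = 0.0688), D10Wsu102e and A230046K03Rik around Aldh1l2 (chr10:82950195-82996885, adjusted p = 0.717 and 0.506) or Gm16606 beyond Gpr37l1 (chr1:137056811-137064258, adjusted p = 0.0661). Tmem47 (chrX:78316037-78343211) had no tested neighbour within 500 kb, and of the next ones Prrg1 was not called (adjusted p = 0.114) and Dmd, 1850 kb away, was called lower (−2.07 ± 0.41, adjusted p = 0.0252). The genes that overlap one of the 10 on the other strand, Gm17594 in Tmem47 and Gm7489 in Samd12, had 0.0689 CPM or less in every library.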

How the data were processed

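Total RNA of 8 mouse prostate tissues was sequenced after removal of ribosomal RNA. The deposited values are raw counts per gene, which the authors made without normalization. The submitters' processing notes name cutadapt 1.9.1, HISAT2 2.1.0, HTSeq 0.6.1 and mm9; the strand setting is not given in the sources used here. The deposited table also gives gene coordinates and exon lengths, used for TPM. Start and end matched GENCODE M1 for 26195 of 27036 genes and for all 10 described.

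Tests used edgeR 4.0.16 in R 4.3.3 (quasi-likelihood F-test, TMM, Benjamini-Hochberg adjustment) for the 14034 genes that exceeded 1 CPM in 2 or more libraries. The 8 libraries shared 1 model of 3 groups, which left 5 residual degrees of freedom. A call needed an absolute log2 fold change above 1 and, after adjustment, p under 0.05. Folds against PCa divide the group mean by the pooled PCa level, with exact Poisson intervals at 95% that cover counting error only, and a level of 0 takes a floor of 3 counts. The steps were tested on simulated counts: for PIN against WT at a 4-fold change and a coefficient of variation of 0.4, 129 of 197 changed genes were called among 13810 tested, with 4 unchanged genes called. The simulated spread was the same for every gene and below the common value of 0.489 in these data. The share called there is therefore no measure of the power reached here.

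The 10 genes, the pathway and marker lists and the tests were chosen with earlier results of these data known. Named genes are the 10, set relatives, up to 3 called genes per list with the largest change in PCa against WT, the 10 others with the largest gap, and the nearest tested genes. Some genes that this rule names are not reported here. The alternatives were upper-quartile factors, DESeq2 1.42.0, no filter, a replicate block, models of only the groups compared and leaving out each library. Replicates are separate libraries under separate numbers, and p-values measure the spread between them. Depth was 21751803 to 29730420 counts per library, and the number of PCa libraries limits every comparison with PCa.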

Additional observations from a re-analysis of the deposited data

How the results depend on the processing

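In PIN against WT, 0 of the 10 genes were called under any of the 13 alternatives. All 10 lay below every WT and PIN library in each alternative that gave this count, which the choice of genes fixes. The median log2 fold change of the 10 in PCa against WT ran from −5.58 to −5.20 when single libraries were left out. Pathway genes called in PCa against WT numbered 28 with DESeq2, 3 in a model of only the groups compared, 9 with the replicate block and 6 to 36 without single libraries, against 17; in PCa against PIN they numbered 26, 3, 4 and 2 to 37, against 13. In PIN against WT the sign turned for genes close to 0: with upper-quartile factors Adarb2 was at 0.027 and Samd12 at 0.049, and without single libraries Adarb2 ran from −0.21 to 0.12, Tmem47 from −0.31 to 0.079, Samd12 from −0.21 to 0.14 and Gpr110 from −0.43 to 0.011. For all of these, the cause was not tested. Libraries with the same replicate number come from different animals, and their deviations correlated at −0.0562 to 0.284, so the numbers were not taken as pairs; the replicate block changed no call of the 10 in PIN against WT, the contrast it was counted for. Without 1 PCa library, the remaining one is assumed to vary like the other groups. Depth limits Adarb2, Gpr37l1, Samd12 and Aass, whose PCa values rest on 17 counts or fewer.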
